A study of Homo sapiens with 18 samples.

Results

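The respiratory chain genes described here are 97 of the 42141 genes in the deposited tables, chosen by symbol. They are the 13 protein genes of the mitochondrial genome and 84 nuclear genes with subunit symbols of complexes I to V. The symbols taken were NDUFA, NDUFB, NDUFC, NDUFS or NDUFV followed by a number (complex I, with NDUFA4 and NDUFA4L2 counted with complex IV), SDHA to SDHD (complex II), UQCR symbols and CYC1 (complex III), numbered subunit symbols of the kind COX5A or COX7C (complex IV), ATP5 symbols (the ATP synthase) and the mitochondrial MT-ND, MT-CYB, MT-CO and MT-ATP symbols. Assembly factors were not sought, but ATP5SL, which GENCODE 29 names DMAC2 (an assembly factor), came in by its ATP5 symbol. The pattern itself uses no measured value. The pattern matched 99 genes, of which 2 readthrough rows were set apart, and it does not take COX4I1, so this complex IV subunit is given beside the members. Of the nuclear members, 36 belong to complex I, 4 to complex II, 10 to complex III, 16 to complex IV and 16 to complex V. The other 2, ATP5S and ATP5SL, carry an ATP5 symbol but were counted with no complex. The mitochondrial members are 7 subunits of complex I, 1 of complex III, 3 of complex IV and 2 of complex V. Symbols are printed as in the deposited tables, where ATP5A1 stands for ATP5F1A, for example.

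RNA was sequenced from acini, hollow spheres that mammary epithelial cells form in a basement membrane gel. All 6 groups are MCF-10A.B2 cells, which derive from non-tumour human breast epithelium and carry a chimeric HER2 receptor that a bivalent small molecule, the B/B homodimerizer, switches on. Acini of JNK-knockout (JNKKO) or parental (WT) cells were kept for 21 days: 7 days in medium with EGF, then 14 days with EGF replaced by dimerizer and TGF-β1, by dimerizer alone or by ethanol (control). Each of the 6 groups (JNKKO with dimerizer and TGF-β1, JNKKO with dimerizer, JNKKO control, WT with dimerizer and TGF-β1, WT with dimerizer, WT control) held 3 libraries. The study asked how expression in JNKKO and WT cells differs while the acini transform. Whether JNKKO is a single clone, and whether the 3 libraries of a group are separate cultures, is not in the labels, and every p-value therefore rests on a spread among libraries that may be technical.

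The respiratory chain passes electrons from NADH (through complex I) and succinate (through complex II) by way of complexes III and IV to oxygen, and the ATP synthase uses the proton gradient that complexes I, III and IV build. Complex II alone is made wholly from nuclear genes, while the other complexes join nuclear subunits with subunits that the mitochondrial genome encodes. Mitochondrial messages are cut from long transcripts of each strand of that genome, and all of these 13 except MT-ND6 are read from one strand. Nuclear subunit genes are transcribed one by one, many of them under NRF1, ETS-type factors and YY1.

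One message is shown because its level needs care in every comparison of abundance. MT-ATP8, a small subunit of the ATP synthase membrane part, is encoded at chrM:8366-8572 (GRCh38, plus strand, GENCODE 29). Its last 46 bases, in capitals, are also the first bases of MT-ATP6, so reads within the shared stretch cannot be assigned to either gene by sequence.
MT-ATP8 transcript: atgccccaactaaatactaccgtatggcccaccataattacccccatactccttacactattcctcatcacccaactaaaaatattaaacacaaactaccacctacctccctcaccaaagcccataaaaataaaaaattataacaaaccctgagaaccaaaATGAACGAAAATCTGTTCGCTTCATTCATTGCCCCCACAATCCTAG
With 207 bases it took between 0.471% and 0.525% of the mitochondrially encoded counts on average per group, yet on the TPM scale, which divides by length, it had the highest group mean of the 13 in every group. Its mean TPM was 22413 in JNKKO with dimerizer and TGF-β1, 30592 in JNKKO with dimerizer, 36974 in JNKKO control, 39746 in WT with dimerizer and TGF-β1, 29036 in WT with dimerizer and 50144 in WT control. It made up 17.2% to 18.6% of the summed TPM of the mitochondrial members by group, so sums of TPM over these genes rest in part on how the quantification treats a message this short.

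Library totals ran from 24243537 to 34499651 expected counts, and no replicates agreed within sampling noise. MAPK9, the gene of JNK2, had 42.1 to 53.9 CPM (counts scaled to library size) in the 9 JNKKO libraries against 57.1 to 68.4 CPM in the 9 WT libraries, while MAPK8, the gene of JNK1, had 25.5 to 34.9 CPM against 22.8 to 35.1 CPM. The labels do not say which JNK gene was targeted. One library, WT with dimerizer and TGF-β1 replicate 3, carries a genotype tag of JNK knockout that contradicts its title. It was grouped by its title, its MAPK9 level lay within the range of WT libraries, and each result that uses it was repeated without it. Without it the share of counts of the mitochondrial members below was 8.39% in WT with dimerizer and TGF-β1 (8.16% with it), TGF-β1 against dimerizer in WT called 10 mitochondrial members higher and 1 lower (9 and 2 with it), and JNKKO against WT with TGF-β1 called 24 nuclear members higher and 13 lower (27 and 15 with it). Of 12 markers of mammary epithelium 11 reached 1 TPM in every group, and KRT19 did not. The summed TPM of 7 immune markers was 60.5 to 65.4 in JNKKO with dimerizer and TGF-β1, 41.4 to 46.6 in JNKKO with dimerizer, 10.2 to 11.4 in JNKKO control, 30.6 to 37.5 in WT with dimerizer and TGF-β1 and 12.9 to 14.1 in the other WT libraries. Across all libraries CD68 had 4 to 40.16 TPM, CSF1R 1.89 to 24.25 and CD14 0.5 to 6.65, with PTPRC at or under 0.26. Sums for endothelial (5.53 to 9.81), adipocyte (up to 1.34) and muscle markers (up to 0.72) were low, and the part of any other cell type in the results below was not tested. In such bulk RNA fewer mitochondria per cell and less RNA per mitochondrion cannot be told apart.

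Mitochondrial and nuclear members did not keep the same order across the 6 groups, and how far they parted depended on the scale. The mitochondrial members took 4.60, 4.85 and 4.64% of all counts in the libraries of JNKKO with dimerizer and TGF-β1, 7.57, 7.48 and 7.32% in JNKKO with dimerizer and 9.11, 9.21 and 9.30% in JNKKO control. In WT cells they took 8.68, 8.10 and 7.70% with dimerizer and TGF-β1, 7.53, 7.32 and 7.35% with dimerizer and 13.14, 13.01 and 13.09% in control. All WT control libraries thus lay above, and all JNKKO libraries with TGF-β1 below, every other library, while the ranges of both dimerizer groups overlapped. MALAT1 and NEAT1, RNAs kept in the nucleus, were read beside these shares as signs of RNA fraction and quality. MALAT1 had 5810.4, 6098 and 5851 CPM in JNKKO with dimerizer and TGF-β1, 5777, 5240.1 and 5075 CPM in JNKKO with dimerizer, 3356, 3669 and 3475 CPM in JNKKO control, 3339, 3161 and 3429 CPM in WT with dimerizer and TGF-β1, 4143, 3904 and 4369 CPM in WT with dimerizer and 3721, 2937 and 3392 CPM in WT control. It was thus highest in JNKKO with dimerizer, with or without TGF-β1, and higher with dimerizer than in control in both genotypes, where the mitochondrial shares were lower. NEAT1 had 2315, 2668 and 2221 CPM in JNKKO with dimerizer and TGF-β1, 3478, 3143 and 3297 CPM in JNKKO with dimerizer, 2934, 2811 and 2607 CPM in JNKKO control, 2362, 2023 and 2217 CPM in WT with dimerizer and TGF-β1, 2809, 2813 and 2924 CPM in WT with dimerizer and 3468, 3561 and 3289 CPM in WT control. Its order over the groups differed from that of MALAT1, and the part of either in the mitochondrial results was not tested. The summed TPM of the 84 nuclear members spanned a far narrower range, with group means of 14969 ± 112 in JNKKO with dimerizer and TGF-β1, 14163 ± 205 in JNKKO with dimerizer, 14808 ± 167 in JNKKO control, 14728 ± 61.6 in WT with dimerizer and TGF-β1, 16245 ± 147 in WT with dimerizer and 15465 ± 141 in WT control (SD, n = 3). TPM add to a fixed total, so lower mitochondrial TPM alone raise the nuclear sums. As a share of the TPM of nuclear genes, these members took means of 1.73, 1.74 and 1.90% in JNKKO, in the same group order. In WT they took 1.91, 2.00 and 2.23%. There WT with dimerizer lay below WT control, while its summed TPM lay above. WT control was the highest and JNKKO with dimerizer and TGF-β1 the lowest, as for mitochondrial shares, and the order between them differed.

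The ratio of the summed TPM of mitochondrial members to that of nuclear members was 8.41 ± 0.168 in JNKKO with dimerizer and TGF-β1, 11.98 ± 0.383 in JNKKO with dimerizer and 13.7 ± 0.191 in JNKKO control (SD, n = 3). In WT cells it was 14.6 ± 0.721 with dimerizer and TGF-β1, 10.4 ± 0.186 with dimerizer and 18.5 ± 0.172 in control. The order of the 3 treatments therefore differed between genotypes: dimerizer with TGF-β1 gave the lowest ratio of the JNKKO groups and the middle one of the WT groups. Neighbouring groups in the order of these ratios were separated by more than the range of their libraries, except WT with dimerizer and TGF-β1 and JNKKO control, whose ranges almost met. These sums were not tested, since they rest on genes chosen together, and they describe the libraries only.

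**Figure D1:**
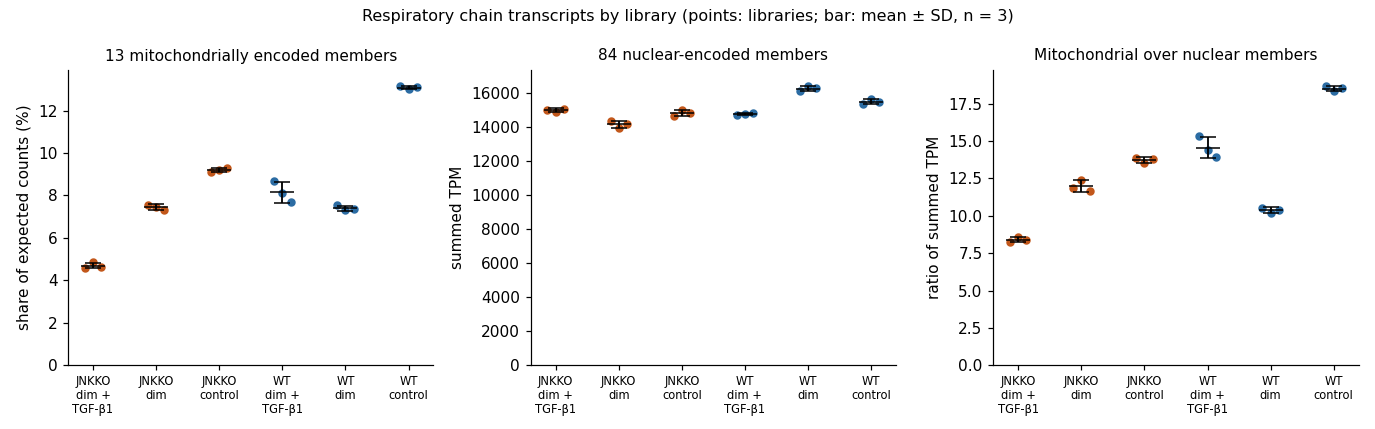
Share of expected counts taken by the 13 mitochondrial members (left, percent), summed TPM of the 84 nuclear members (middle) and their ratio in TPM (right), for each library (points) with group mean and SD (bars, n = 3). Mitochondrial shares run between 4.60% and 13.14% while the nuclear group means stay between 14163 and 16245 TPM.

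The dimerizer, which switches on the HER2 receptor, went with lower mitochondrial messages in both genotypes. Of the 13, 12 fell in JNKKO acini and MT-ND3, a further complex I subunit, did not pass the test at 1693, 1698 and 1601 CPM with dimerizer and 1526, 1652 and 1585 CPM in control, while 40.4% of all genes passed (adjusted p under 0.05), 22.5% higher and 17.9% lower. The median log2 difference, printed below with its SE for single genes (edgeR quasi-likelihood test), was -0.24 and the largest fall was -0.31 for MT-ND4. MT-CO1, the catalytic core of complex IV, had 25096, 25304 and 24796 CPM with dimerizer against 27992, 28219 and 28934 CPM in control (-0.18 ± 0.04, edgeR adjusted p = 1.52e-04), and MT-CYB, the cytochrome b of complex III, 6119.9, 6181 and 5985 CPM against 7523, 7470.3 and 7696 CPM (-0.31 ± 0.03). Both genes were lower in every dimerizer library than in any control library. MT-ND1, at -0.15 ± 0.05, lost its call when JNKKO control replicate 2 was left out (-0.13, adjusted p = 0.0747) and likewise without JNKKO control replicate 3 (adjusted p = 0.0509) or JNKKO dimerizer replicate 3 (adjusted p = 0.083).

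In WT acini all 13 mitochondrial messages fell with dimerizer. MT-CO1 had 25982, 25170.2 and 25238 CPM with dimerizer against 41568, 39438 and 40123 CPM in control, a log2 difference of -0.67 ± 0.04 (SE; edgeR quasi-likelihood test, adjusted p = 2.32e-15). MT-CYB had 5498, 5304 and 5415 CPM with dimerizer against 10720.3, 10776 and 11086 CPM in control. The 3 and 3 libraries did not overlap for either gene, and every dimerizer library lay far below the lowest control library. The log2 differences of the 13 ran between -1.39 for MT-ND2 and -0.57 for MT-ND1, both membrane subunits of complex I, around a median of -0.99, where the median of all 16911 genes tested was 0.03. MT-ATP8 had 339, 320.3 and 353 CPM with dimerizer against 661, 664 and 679 CPM in control (-0.99 ± 0.05), and MT-ATP6, the proton channel subunit beside it, changed by -0.79 ± 0.04. MT-ND6, the complex I subunit of the other strand, fell to 1068, 1041 and 1117 CPM with dimerizer, against 2384, 2362 and 2491 CPM in control. In this comparison 55.9% of all genes passed the test, 30.3% higher and 25.6% lower. The difference between genotypes was itself tested. All 13 messages passed the interaction of genotype with dimerizer, from 0.33 for MT-CO3 to 1.09 for MT-ND2 (JNKKO minus WT, median 0.71), beside 42.6% of all genes (21.4% higher and 21.2% lower). Relative to control, each message therefore stood lower in WT with dimerizer than in JNKKO with dimerizer.

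Nuclear members passed the test in both directions with dimerizer. In JNKKO 9 of 79 tested rose and 18 fell, with a median of -0.03, where 22.5% of all genes rose and 17.9% fell. Leaving out JNKKO control replicate 2 left 9 rises and 8 falls, so the direction of the split rests on that library, and without TMM factors it was 1 and 37, in TPM 3 and 27 and after centring 9 and 14. SDHA, the flavoprotein that oxidises succinate, had 123, 118 and 115 CPM with dimerizer against 147, 146 and 143 CPM in control (-0.29 ± 0.04, edgeR adjusted p = 8.04e-07). SDHD, a membrane anchor of complex II, fell by 0.23, COX8A by 0.21 and NDUFB9 of complex I by 0.18. Among members at 5 CPM or more the largest rise was 0.19 for NDUFA12, an accessory subunit of complex I, which did not pass without TMM factors, without JNKKO control replicate 1 or without JNKKO dimerizer replicate 1.

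In WT 18 of 79 rose and 34 fell, around a median log2 difference of -0.07, where 30.3% of all genes rose and 25.6% fell. The direction of this split depended on scaling: without TMM factors 25 rose and 25 fell, and on the log2(TPM + 1) scale, where the median of all genes moved to 0.09, 28 rose and 13 fell, while centring each library on its median gave 16 and 37. Complex I carried most of the falls, with 21 of 36 lower and 4 higher (6 higher and 7 lower in TPM, 3 and 21 after centring). Its NDUFS7 (chr19:1383527-1395589), which carries the last iron-sulfur cluster before ubiquinone, had 68.0, 65.4 and 68.6 CPM with dimerizer against 97.5, 99.1 and 112 CPM in control (-0.61 ± 0.05, edgeR adjusted p = 1.04e-11). The accessory subunits NDUFA3 (-0.48), NDUFA2 (-0.41) and NDUFA5 (-0.33) and COX8A (-0.49), a small subunit of complex IV, were the next largest falls.

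Among members at 5 CPM or more, the largest rises in WT with dimerizer were ATP5C1 and ATP5F1 of the ATP synthase, though other subunits of it fell. ATP5C1, the rotor shaft of its F1 part, had 153, 153 and 158 CPM with dimerizer against 114, 117 and 108 CPM in control (0.45 ± 0.04), and ATP5F1, a subunit of the stalk that holds F1 still, had 206, 208 and 204 CPM against 170.2, 164 and 167 CPM (0.30 ± 0.03). The groups did not overlap for either gene. ATP5A1, the alpha subunit, rose by 0.19, COX5A of complex IV by 0.26, and UQCRH and UQCRQ, small subunits of complex III, by 0.24 and 0.23. Of the ATP synthase, ATP5E (0.23) and ATP5G3 (0.12) rose too. ATP5D (-0.28), ATP5G1 (-0.22), ATP5G2 (-0.20) and ATP5H (-0.19) fell, and its other tested subunits, ATP5B among them, did not pass. Within complex II SDHB, the iron-sulfur subunit, rose by 0.16 while SDHA fell by 0.29. Within complex III UQCRC1, a core protein, fell by 0.22 and CYC1, the cytochrome c1, by 0.26.

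With TGF-β1 added to the dimerizer the mitochondrial messages moved differently in the genotypes. In JNKKO all 13 mitochondrial messages fell against dimerizer alone (60.7% of all genes passed, 30.5% higher and 30.3% lower). In WT 9 rose and 2 fell (65.2% of all genes, 33.4% higher and 31.8% lower). MT-ND4, a proton-pumping subunit of complex I, had 5820.5, 5985 and 5763 CPM in JNKKO with TGF-β1 against 8472, 8076 and 8095 CPM without (-0.49 ± 0.03, edgeR adjusted p = 6.02e-13). In WT it had 12665, 11803 and 11114 CPM with TGF-β1 against 7469, 7319.8 and 7388 CPM without (0.68 ± 0.04, adjusted p = 2.33e-16). The libraries did not overlap in either genotype, and they moved in opposite directions.

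MT-ND6 and MT-ND1 stood at the ends of both ranges. MT-ND6 had 1256, 1286 and 1207 CPM in JNKKO with TGF-β1 against 1386, 1393 and 1283 CPM without (-0.12 ± 0.04), the smallest fall, which did not pass without JNKKO dimerizer with TGF-β1 replicate 3 (-0.09, adjusted p = 0.0559) and turned to 0.16 on the uncentred log2(TPM + 1) scale. In WT it had 2027, 2070.1 and 2104 CPM with TGF-β1 against 1068, 1041 and 1117 CPM without (0.94 ± 0.04), the largest rise of the 13. The RNA was selected by poly(A), and the part of that step in the MT-ND6 values was not tested. MT-ND1 had 1734, 1924 and 1804 CPM in JNKKO with TGF-β1 against 4769.7, 4909 and 4543 CPM without (-1.38 ± 0.05), the largest fall of the 13. In WT it fell too, to 2838, 2514 and 2462 CPM with TGF-β1 against 4093, 3889 and 3939 CPM without (-0.61 ± 0.05). Among the messages that passed in WT, MT-ND1 shared this direction only with MT-CO3 (-0.11 ± 0.04). The MT-CO3 call was lost without WT dimerizer replicate 1 (adjusted p = 0.0914) or WT with TGF-β1 replicate 3 (adjusted p = 0.0902), and its sign turned in uncentred TPM (0.04). MT-ND2 at 0.11 ± 0.04 passed in WT but not without WT with TGF-β1 replicate 1 (0.06, adjusted p = 0.131) or WT dimerizer replicate 2 (0.09, adjusted p = 0.0655), and MT-CO1 and MT-ND3 did not pass, at 0.05 and -0.06. MT-CO1 passed without replicate 3 of WT with TGF-β1 (0.09, adjusted p = 0.0233). MT-ND3 passed as lower without replicate 1 of that group (-0.12, edgeR adjusted p = 0.0107).

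Members of complexes III and V showed the same split between genotypes. MT-CYB had 4116, 4188 and 4059 CPM in JNKKO with TGF-β1 against 6119.9, 6181 and 5985 CPM without (-0.56 ± 0.03), and in WT 6640.1, 6425 and 5961 CPM against 5498, 5304 and 5415 CPM (0.23 ± 0.03). MT-ATP6 had 3433, 3486 and 3353 CPM in JNKKO with TGF-β1 against 5588, 5450.1 and 5349 CPM without (-0.67 ± 0.04), and in WT 5788, 5418 and 5057 CPM against 4765, 4788 and 4769 CPM (0.18 ± 0.03). MT-ATP8 changed by -0.78 ± 0.05 in JNKKO and by 0.33 ± 0.05 in WT. In all of these the JNKKO libraries with TGF-β1 were lower than those without, and the WT libraries with TGF-β1 higher than those without. All 13 messages passed the interaction of genotype with TGF-β1 and were below 0 in it, from -1.17 for MT-ND4 to -0.57 for MT-CO3 (JNKKO minus WT, median -0.86), beside 32.9% of all genes (14.1% higher and 18.8% lower).

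**Figure D2:**
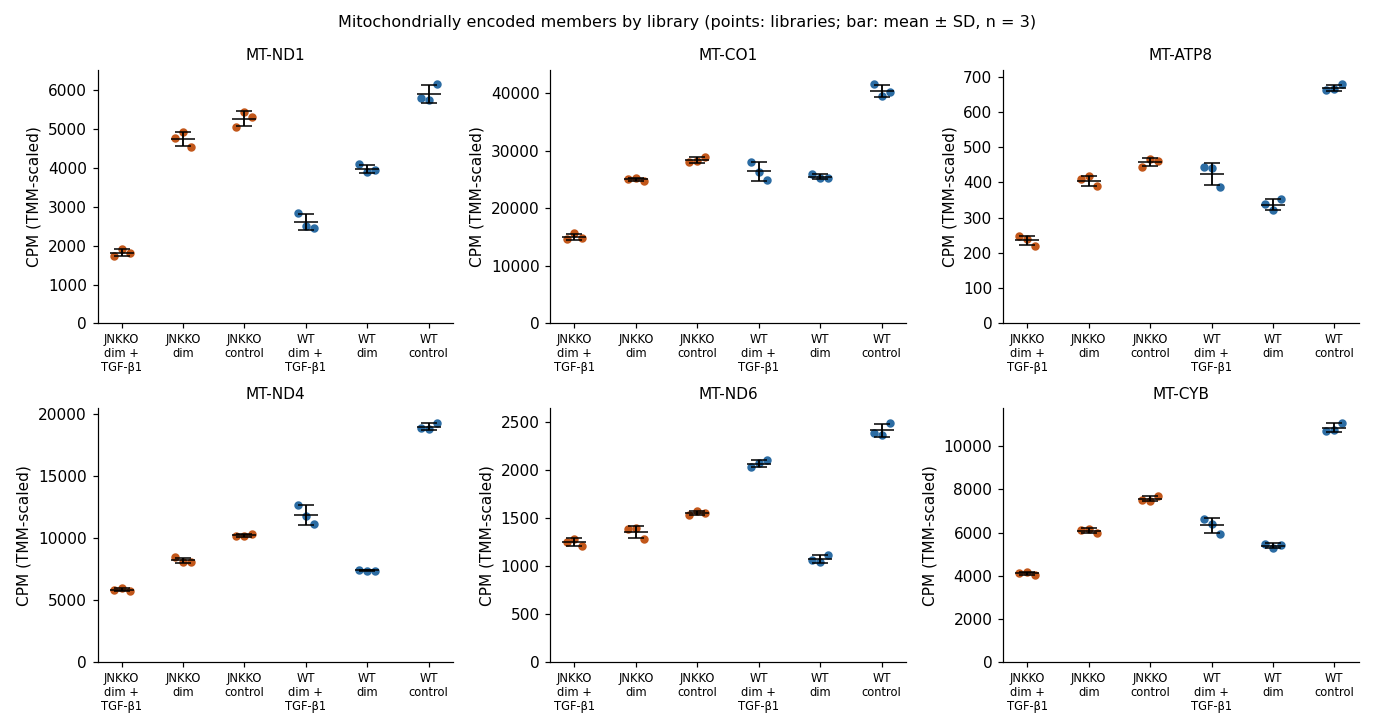
CPM (TMM-scaled) of 6 mitochondrial members in each library (points) with group mean and SD (bars, n = 3), JNKKO groups in orange and WT groups in blue. WT control is the highest group for all 6, JNKKO with dimerizer and TGF-β1 is the lowest for all but MT-ND6, and in WT the libraries with TGF-β1 lie below those with dimerizer alone for MT-ND1 and above them for MT-ND6.

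The response to TGF-β1 against dimerizer tended to rise along the mitochondrial genome, less evenly in WT than in JNKKO. Over the 12 members read from the plus strand, the log2 difference tended to be higher the farther along the gene's midpoint lay. The Pearson correlation was 0.81 (Spearman 0.79) in JNKKO and 0.64 (0.63) in WT. MT-CYB, the farthest of the 12, lay below MT-ND4 and MT-ND5 in JNKKO (-0.56 against -0.49 and -0.42) and in WT (0.23 against 0.68 and 0.61). MT-ND1 (chrM:3307-4262), the first message after the ribosomal RNAs, had the lowest value in both, and without it the correlations were 0.75 in JNKKO and 0.45 in WT. With MT-RNR1 and MT-RNR2, the ribosomal RNAs that lie before it, they were 0.88 and 0.81 over 14 genes. MT-RNR1 changed by -1.33 in JNKKO and -1.04 in WT, and MT-RNR2 by -1.10 and -0.54, and both RNAs are targets of the poly(A) selection and rRNA depletion steps, whose part in these values was not tested. With dimerizer alone the correlations over the 12 members were -0.27 (Spearman -0.52) in JNKKO and -0.26 (-0.36) in WT. Without MT-ND1 they were -0.19 in JNKKO and -0.06 in WT. With both ribosomal RNAs they were -0.52 and -0.59 over 14 genes, opposite in sign to those with TGF-β1. For dimerizer with TGF-β1 against control, the correlations over the 12 members were 0.77 (Spearman 0.70) in JNKKO and 0.64 (0.31) in WT. Without MT-ND1 the Spearman values of that comparison were 0.62 in JNKKO and 0.12 in WT. These correlations run across genes of one molecule that share transcripts, libraries and overlapping ends (46 bases for MT-ATP8 with MT-ATP6, 7 for MT-ND4L with MT-ND4 and 1 for MT-ATP6 with MT-CO3), so they are descriptions with no test.

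Shares of the mitochondrial counts, which no scaling between libraries can move, show the same ends. MT-ND1 made up 3.83% of them in JNKKO with dimerizer and TGF-β1, 6.13% in JNKKO with dimerizer, 5.79% in JNKKO control, 3.23% in WT with dimerizer and TGF-β1, 5.56% in WT with dimerizer and 4.45% in WT control (group means, n = 3). The groups with TGF-β1 were the lowest of each genotype. MT-ND6 made up 2.63% in JNKKO with dimerizer and TGF-β1, 1.75% in JNKKO with dimerizer, 1.71% in JNKKO control, 2.57% in WT with dimerizer and TGF-β1, 1.50% in WT with dimerizer and 1.82% in WT control, and here the groups with TGF-β1 were the highest. The sources used here do not say whether counting used the strand, so reads from the plus strand opposite MT-ND6 may be counted with it.

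**Figure D3:**
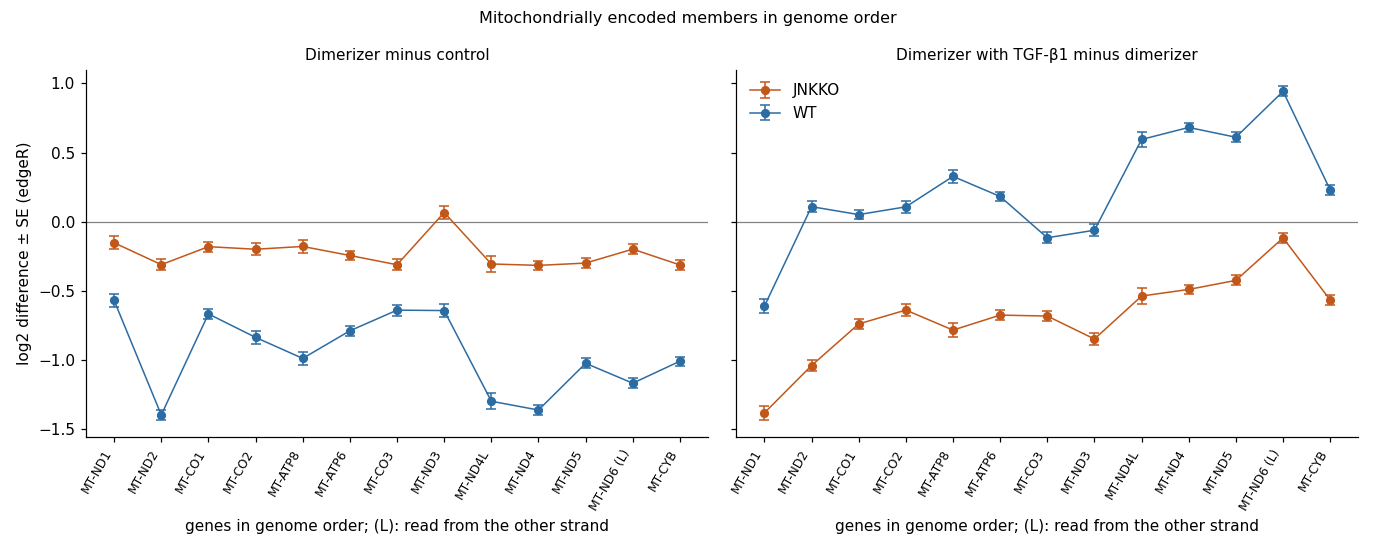
Log2 difference ± SE (edgeR) of the 13 mitochondrial members in genome order, for dimerizer minus control (left) and dimerizer with TGF-β1 minus dimerizer (right), JNKKO in orange and WT in blue. With TGF-β1 both lines are lowest at MT-ND1 (-1.38 in JNKKO, -0.61 in WT) and highest at MT-ND6 (-0.12 in JNKKO, 0.94 in WT), which is read from the other strand, with a dip between them, and with dimerizer WT lies below JNKKO at every gene.

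Nuclear members fell with TGF-β1 in both genotypes, the opposite of most mitochondrial messages in WT. In JNKKO 11 of 79 rose and 45 fell (median -0.18), and in WT 5 rose and 55 fell (median -0.27), where the medians of all genes were -0.01 and 0.00. The uncentred log2(TPM + 1) scale moved the median of all genes to 0.16 in JNKKO and 0.11 in WT, and there the split turned to 34 and 25 in JNKKO and shrank to 13 and 37 in WT. Centring each library on its median gave 8 and 42 in JNKKO and 4 and 57 in WT. The falls are therefore falls relative to the median gene.

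Complex II fell as a whole with TGF-β1: its 4 genes were lower in both genotypes. SDHD (chr11:112086773-112120013) had 59.0, 66.3 and 64.4 CPM in JNKKO with TGF-β1 against 95.7, 104 and 95.7 CPM without (-0.64 ± 0.04, edgeR adjusted p = 2.63e-13), and in WT 79.8, 74.9 and 74.1 CPM against 116, 116 and 119.8 CPM (-0.62 ± 0.04). SDHA changed by -0.54 ± 0.04 in JNKKO and -0.39 ± 0.04 in WT, and SDHB by -0.44 ± 0.04 and -0.48 ± 0.04. No library with TGF-β1 reached the level of a library without it for these 3 genes. SDHC was the exception on the uncentred TPM scale, where it rose in JNKKO.

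In complex III 6 of 10 genes fell and 1 rose in JNKKO (5 and 3 in uncentred TPM), and 9 fell and 1 rose in WT. CYC1 had 148, 153 and 150.3 CPM in JNKKO with TGF-β1 against 261, 254 and 268 CPM without (-0.79 ± 0.04), and in WT 184, 174 and 182 CPM against 268, 276 and 272 CPM (-0.60 ± 0.04). UQCRC2 (chr16:21952660-21983660), a core protein, had 132, 129 and 126 CPM in JNKKO with TGF-β1 against 198, 204 and 196 CPM without, and in WT 137, 131 and 128 CPM against 211, 216 and 220.0 CPM. For both genes no library with TGF-β1 reached the level of one without it, and UQCRC2 changed by -0.63 in JNKKO and -0.71 in WT. Its partner UQCRC1 did not follow: it fell in JNKKO, with 328, 325 and 319 CPM against 428, 406 and 425 CPM (-0.37 ± 0.04), and rose in WT, with 397, 404 and 381 CPM against 359, 367 and 361 CPM (0.12 ± 0.04). UQCRFS1, the Rieske iron-sulfur protein, changed by -0.44 in JNKKO and -0.68 in WT. UQCRH, the hinge protein at cytochrome c1, had the largest fall of the nuclear members at 5 CPM or more in WT, with 111, 110.5 and 107 CPM against 182, 187 and 196 CPM (-0.78 ± 0.04), and in JNKKO 135, 139 and 134 CPM against 179.8, 182 and 178 CPM (-0.40 ± 0.04).

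In the ATP synthase 12 of 15 tested genes fell and 2 rose with TGF-β1 in JNKKO (9 and 4 in uncentred TPM), and 13 of 15 fell in WT. ATP5A1 had 411, 413 and 415 CPM in JNKKO with TGF-β1 against 607, 612 and 597 CPM without (-0.55 ± 0.03), and in WT 439.5, 415 and 401 CPM against 685, 695 and 695 CPM (-0.72 ± 0.03). ATP5B, the catalytic beta subunit and one of the most abundant members, had 476, 494 and 488 CPM in JNKKO with TGF-β1 against 724, 755 and 723 CPM without (-0.60 ± 0.03), and in WT 552, 527 and 521 CPM against 765, 765 and 755 CPM (-0.51 ± 0.03). The groups with and without TGF-β1 did not overlap for either gene in either genotype. ATP5F1 and ATP5C1, which had risen with dimerizer in WT, changed by -0.75 and -0.72 in WT and by -0.45 and -0.51 in JNKKO. ATP5S, a coupling factor, fell by 0.61 in JNKKO.

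Complex IV and complex I moved less evenly. Of 12 tested nuclear genes of complex IV 7 fell in JNKKO (5 rose and 2 fell in uncentred TPM) and 8 fell in WT (1 rose and 6 fell), and none rose in either. COX5A changed by -0.42 ± 0.04 in JNKKO and -0.56 ± 0.04 in WT, COX5B by -0.33 ± 0.04 and -0.54 ± 0.04, and COX4I1, which the symbol rule leaves out, by -0.39 ± 0.04 and -0.42 ± 0.04. Of 36 nuclear genes of complex I 8 rose and 14 fell in JNKKO (21 and 5 in uncentred TPM, 5 and 13 after centring), and 4 rose and 20 fell in WT (10 and 10, and 3 and 20 after centring). Among the core subunits, NDUFV1, which takes electrons from NADH, had 109.7, 104 and 105 CPM in JNKKO with TGF-β1 against 148, 149.5 and 157 CPM without (-0.51 ± 0.04), and changed by -0.36 ± 0.04 in WT. NDUFS1, the largest iron-sulfur subunit, changed by -0.39 ± 0.03 in JNKKO and -0.32 ± 0.03 in WT. NDUFB5 (chr3:179604690-179627647), an accessory subunit of the membrane arm, had 72.5, 73.4 and 69.7 CPM in JNKKO with TGF-β1 against 111, 110.5 and 110.4 CPM without, and in WT 73.2, 67.7 and 67.6 CPM against 114, 116 and 114 CPM. Against this, NDUFS5 (chr1:39026318-39034636), a small accessory subunit, rose in both, with 148, 151 and 142 CPM in JNKKO with TGF-β1 against 116, 106 and 111 CPM without (0.40 ± 0.04) and in WT 130.1, 139 and 138 CPM against 104, 108 and 101 CPM (0.38 ± 0.04). It was the largest rise among nuclear members in both genotypes, and NDUFC2 (0.32) and NDUFB2 (0.30) followed it in JNKKO.

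**Figure D4:**
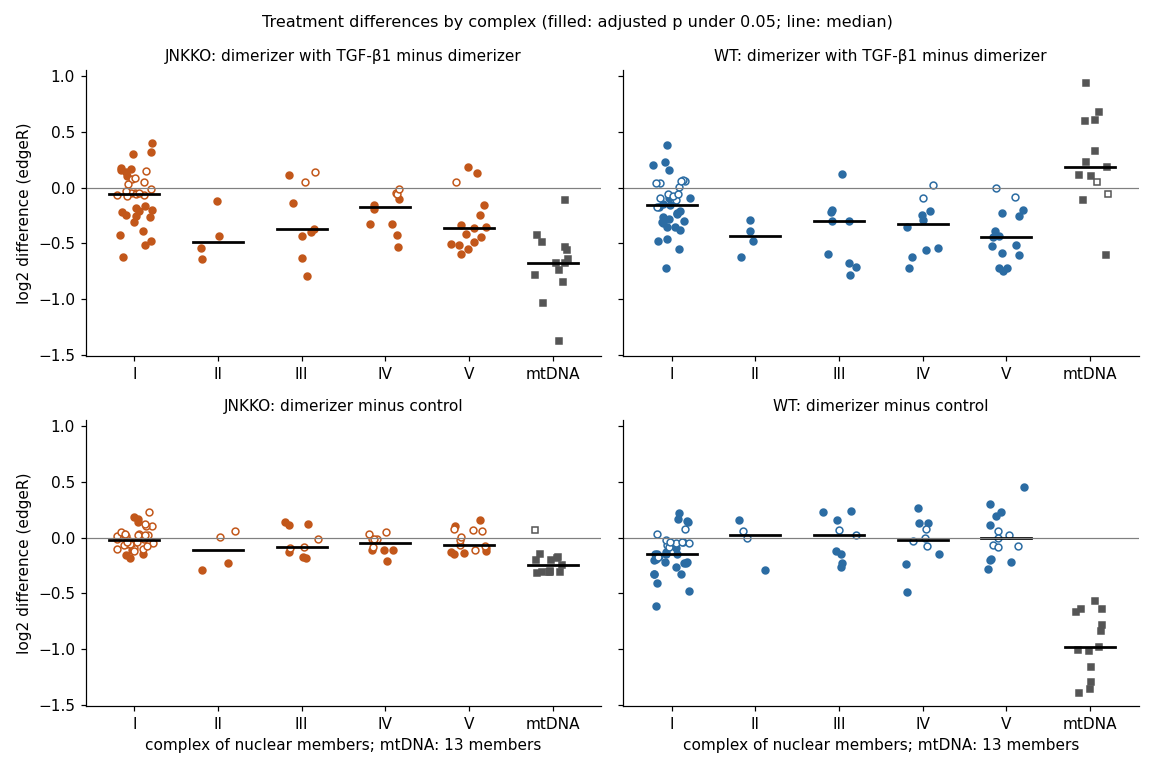
Log2 differences (edgeR) of the tested nuclear members by complex and of the 13 mitochondrial members (mtDNA), for TGF-β1 (top) and dimerizer (bottom) in JNKKO (left) and WT (right), filled where adjusted p was under 0.05, with medians as lines. NDUFA4L2, COX6B2 and UQCRHL (under 5 CPM) and the 2 members outside the complexes are not drawn, and the mitochondrial median is 0.18 in WT with TGF-β1 against -0.67 in JNKKO.

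Against control, which shares its libraries with both comparisons above, all 13 mitochondrial messages were lower with dimerizer and TGF-β1 in each genotype. The medians were -0.88 in JNKKO (67.3% of all genes passed, 33.8% higher and 33.4% lower) and -0.70 in WT (61.8%, 31.3% higher and 30.5% lower), with MT-ND1 (-1.53) lowest in JNKKO and MT-ND2 (-1.29) lowest in WT. MT-ND6 was the highest in both (-0.31 and -0.22), and its sign in WT turned in uncentred TPM (0.06). Of the nuclear members 15 rose and 49 fell in JNKKO, and 3 rose and 65 fell in WT. In uncentred TPM, where the median of all genes was 0.13 and 0.17, these were 30 and 29 in JNKKO and 18 and 32 in WT, and after centring 14 and 46, and 3 and 66. CYC1 was the largest fall in both genotypes (-0.97 in JNKKO, -0.86 in WT).

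Between genotypes the mitochondrial messages were lower in JNKKO in control and with TGF-β1, and mostly higher with dimerizer alone. In control all 13 were lower in JNKKO (49.3% of all genes passed, 25.8% higher and 23.5% lower), around a median of -0.53, with MT-ND4 at -0.89 ± 0.04 and MT-ND1 at -0.16 ± 0.05. MT-ND1 did not pass without WT control replicate 3 (adjusted p = 0.0518) or JNKKO control replicate 1 (adjusted p = 0.0531). With dimerizer 9 of 13 were higher in JNKKO and none was lower (40.1% of all genes, 21.6% higher and 18.5% lower), around a median of 0.19, and the largest was MT-ND2, with 6913, 6681 and 6508 CPM in JNKKO against 5129, 4896 and 4987 CPM in WT (0.42 ± 0.04). This count depended on scaling: 7 were higher and 2 lower without TMM factors, and 4 and 2 in uncentred TPM, with MT-CO1 (-0.02 here) among those lower. With dimerizer and TGF-β1 all 13 were lower in JNKKO (52.9% of all genes, 26.5% higher and 26.4% lower), around a median of -0.73, between -1.02 for MT-ND4 and -0.52 for MT-ND3.

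Nuclear members of complex I were lower in JNKKO in control, 27 of 36 with 1 higher, and 21 to 27 were lower under every scaling tried. NDUFS7 had 69.8, 72.8 and 71.1 CPM in JNKKO control against 97.5, 99.1 and 112 CPM in WT control (-0.53 ± 0.05, edgeR adjusted p = 3.02e-10), and NDUFA2 (-0.36) and NDUFA5 (-0.36) followed. Over all complexes 10 nuclear members were higher and 43 lower in JNKKO control (median -0.12), among the higher ones ATP5C1 (0.28) and COX5A (0.23). With dimerizer 4 were higher and 25 lower (median -0.06), SDHD at -0.26 being the lowest, and the lower ones grew to 53 without TMM factors and 59 in uncentred TPM, where the median of all genes was -0.10 and -0.09, against 20 after centring. With dimerizer and TGF-β1 the split turned to 27 higher and 15 lower (median 0.06), with 17 and 17 without TMM factors, 18 and 16 in uncentred TPM and 34 and 13 after centring. ATP5G2, a c-ring subunit of the ATP synthase, was the highest in JNKKO there among members at 5 CPM or more (0.33 ± 0.04), as it was with dimerizer alone (0.24 ± 0.04). SDHA was lower in JNKKO in all 3 treatments (-0.38 with dimerizer and TGF-β1, -0.23 with dimerizer, -0.23 in control), and COX4I1 as well (-0.11, -0.14 and -0.11), though its calls in control and with TGF-β1 were lost when single libraries were left out.

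**Figure D5:**
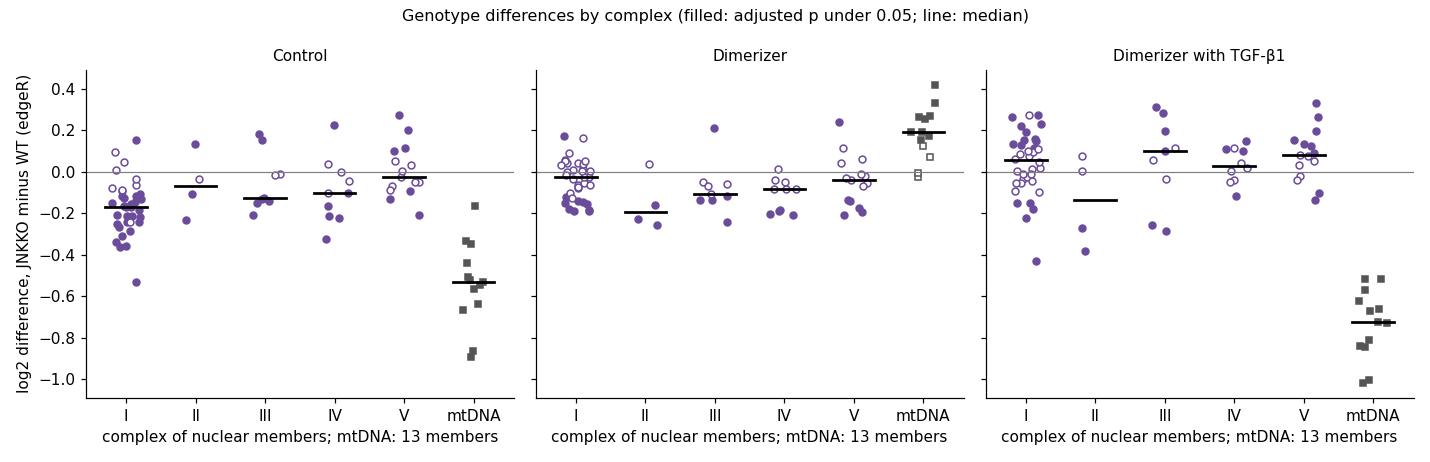
Log2 differences, JNKKO minus WT (edgeR), of the tested nuclear members by complex and of the 13 mitochondrial members (mtDNA) in each treatment, filled where adjusted p was under 0.05, with medians as lines. The mitochondrial medians are -0.73 with dimerizer and TGF-β1, 0.19 with dimerizer and -0.53 in control, and the 3 members under 5 CPM and the 2 outside the complexes are not drawn.

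Single nuclear members differed between genotypes in their response, by the interaction tests. With dimerizer 20 of 79 tested nuclear members were above 0 and 13 below (JNKKO minus WT). Of all genes 42.6% passed, 21.4% higher and 21.2% lower. Without TMM factors the nuclear counts were 9 and 31, and in uncentred TPM 5 and 31. The median of all genes was -0.13 and -0.09 there. After centring the nuclear counts were 22 and 10. NDUFS7 (0.47 ± 0.07) and UQCRC1 (0.34 ± 0.05) stood above 0, and ATP5F1 (-0.37 ± 0.05) and ATP5A1 (-0.31 ± 0.05) below. With TGF-β1 27 nuclear members were above 0 and 7 below, where 32.9% of all genes passed, 14.1% higher and 18.8% lower. Without TMM factors these nuclear counts were 42 and 3, and after centring 25 and 4. UQCRQ (0.42 ± 0.06), NDUFB1 (0.41 ± 0.08) and UQCRH (0.38 ± 0.05) were the highest among members at 5 CPM or more. All 3 fell in WT with TGF-β1, whereas in JNKKO UQCRQ rose (0.12, a call lost without JNKKO dimerizer replicate 2 or 3), NDUFB1 did not pass and UQCRH fell by 0.40. UQCRC1 (-0.50 ± 0.05) and NDUFS7 (-0.37 ± 0.07) were the lowest.

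Isoforms limited to certain tissues were near 0. COX6A2, COX7A1, COX7B2 and COX8C, and ATP5L2, stayed at or under 0.265 CPM in every library and were not tested, so 79 of 84 nuclear members were tested. COX6B2, NDUFA4L2 and UQCRHL passed the filter under 5 CPM, while the other 76 averaged 19.6 to 682 CPM. NDUFA4L2, known as a target of hypoxia-inducible factor, had 1.19, 0.838 and 1.65 CPM in JNKKO with dimerizer and TGF-β1, 0.982, 1.25 and 0.805 CPM in JNKKO with dimerizer, 0.247, 0.141 and 0.230 CPM in JNKKO control, 0.0907, 0.365 and 0.494 CPM in WT with dimerizer and TGF-β1, 0.398, 0.263 and 0.281 CPM in WT with dimerizer and 0.0317, 0.161 and 0.0336 CPM in WT control. With dimerizer it rose in JNKKO (2.28 ± 0.46, edgeR adjusted p = 1.77e-04) and in WT (1.98 ± 0.62, adjusted p = 0.00801), and it was higher in JNKKO than in WT with dimerizer (1.69 ± 0.41), from no more than 46 counts in any library. COX6B2, at no more than 0.497 CPM in any library, was lower in JNKKO than in WT with dimerizer and TGF-β1 (-1.24 ± 0.50). UQCRHL is a copy of UQCRH in which 4 of 273 coding bases differ (98.53% identity), so the division of reads between these genes is uncertain, as are the UQCRHL calls, whose log2 difference with TGF-β1 in WT was -0.83.

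Genes that serve the chain without being subunits were read from lists, beside the share of all genes called: 30.5% rose and 30.3% fell with TGF-β1 in JNKKO, and 33.4% rose and 31.8% fell in WT. Of 77 mitochondrial ribosomal proteins, which translate the 13 messages, 7 rose and 48 fell with TGF-β1 in JNKKO (26 and 17 in uncentred TPM, 7 and 46 after centring). In WT 3 rose and 58 fell (10 and 43 in uncentred TPM). The median log2 differences were -0.20 in JNKKO and -0.32 in WT, close to those of the nuclear subunits. Of 14 genes of the tricarboxylic acid cycle 10 fell and none rose in JNKKO (3 rose and 9 fell in uncentred TPM), and 12 fell and 1 rose in WT. LRPPRC, which binds and stabilises mitochondrial messages, had 145, 147 and 148 CPM in JNKKO with TGF-β1 against 298, 334 and 305 CPM without (-1.09 ± 0.04), and in WT 152, 146 and 139 CPM against 321, 320.0 and 317 CPM (-1.13 ± 0.04). The interaction did not pass for LRPPRC (0.04, edgeR adjusted p = 0.596), and in WT it was higher with dimerizer than in control (0.41 ± 0.04), where all 13 messages were lower. TFAM, the main transcription factor of mitochondrial DNA, changed by -0.55 ± 0.06 with TGF-β1 and 0.34 ± 0.06 with dimerizer in WT. In JNKKO TFAM had 53.2, 59.4 and 52.8 CPM with dimerizer, which overlapped control (62.7, 60.1 and 55.2 CPM). With TGF-β1 added it had 40.3, 45.1 and 41.9 CPM there. POLRMT, the mitochondrial RNA polymerase of the same list, went the other way with dimerizer in WT (-0.40 ± 0.05). It had 70.8, 69.7 and 67.2 CPM with dimerizer against 85.1, 90.8 and 98.3 CPM in control. With TGF-β1 POLRMT fell by 0.29 in JNKKO. In WT it had 68.3, 65.0 and 73.7 CPM with TGF-β1, which overlapped the libraries with dimerizer alone.

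Regulators of mitochondrial biogenesis moved in several directions. PPARGC1A, the coactivator PGC-1α, had 6.93, 9.09 and 10.1 CPM in JNKKO with TGF-β1 against 7.52, 7.76 and 8.11 CPM without, and in WT 23.7, 22.2 and 21.9 CPM against 6.24, 6.10 and 6.69 CPM. It rose in WT (1.83 ± 0.09, edgeR adjusted p = 1.72e-16), and the interaction was -1.67 ± 0.14. With dimerizer alone PPARGC1A stood above control in JNKKO (control 3.24, 3.25 and 3.64 CPM). In WT its libraries with dimerizer alone overlapped those of control (6.73, 6.29 and 6.41 CPM). PPARGC1B fell in both (-1.60 in JNKKO, -1.31 in WT), and so did MYC (-0.98 and -0.92). Of 20 genes of mitochondrial RNA processing 14 rose and 1 fell with dimerizer in WT (30.3% and 25.6% of all genes), and 3 rose and 11 fell with TGF-β1 in JNKKO (8 and 3 in uncentred TPM) while 1 rose and 13 fell in WT. Of 17 genes of mitochondrial DNA transcription and replication 5 rose and 10 fell with TGF-β1 in JNKKO (7 and 3 in uncentred TPM), and 3 rose and 10 fell in WT. Of 44 assembly factors 6 rose and 19 fell with TGF-β1 in JNKKO (21 and 7 in uncentred TPM), and 6 rose and 26 fell in WT. Of 24 genes of hypoxia and glycolysis 18 rose and none fell with dimerizer in JNKKO (22.5% and 17.9% of all genes), and 21 were higher in JNKKO than in WT with dimerizer with none lower (21.6% and 18.5% of all genes; 19 and 1 without TMM factors).

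Promoter sequences were read because the nuclear members share regulators that bind short motifs near the start site. RefSeq windows (GRCh38.p14, 250 bases before to 50 bases from the start on) were found for 65 of the 84 nuclear members. They were searched on both strands for the NRF1-type motif (GCGCA and GCGC split by 1 free base), CCGGAAG (ETS) and ATGGCGG (YY1-type), none of which holds another. Shares are of genes with a match in any of their windows, and some genes have several. The NRF1-type letters were found for 24.6% of the 65 members against 6.98% of all 27305 genes with a window. The ETS letters were found for 29.2% against 12.2%, and the YY1-type letters for 32.3% against 6.66%. SDHD, which fell in both genotypes with TGF-β1, is the member whose window holds all 3 motifs. NDUFB4, an accessory subunit of complex I, holds the NRF1-type letters at 3 places, and UQCRC2, which also fell in both, holds none. SDHA, whose window is not shown, holds the NRF1-type letters at 4 places and fell in both (-0.54 in JNKKO, -0.39 in WT). Capitals mark the matches, and the windows lie at chr11:112086623-112086922 for SDHD, chr3:120596086-120596385 for NDUFB4 and chr16:21953111-21953410 for UQCRC2, all on the plus strand.
SDHD promoter: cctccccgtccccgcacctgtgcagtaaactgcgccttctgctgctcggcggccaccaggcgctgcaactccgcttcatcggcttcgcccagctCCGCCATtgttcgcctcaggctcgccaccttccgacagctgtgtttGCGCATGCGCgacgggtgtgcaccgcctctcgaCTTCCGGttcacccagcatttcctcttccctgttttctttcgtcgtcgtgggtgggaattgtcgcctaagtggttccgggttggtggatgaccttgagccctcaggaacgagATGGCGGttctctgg
NDUFB4 promoter: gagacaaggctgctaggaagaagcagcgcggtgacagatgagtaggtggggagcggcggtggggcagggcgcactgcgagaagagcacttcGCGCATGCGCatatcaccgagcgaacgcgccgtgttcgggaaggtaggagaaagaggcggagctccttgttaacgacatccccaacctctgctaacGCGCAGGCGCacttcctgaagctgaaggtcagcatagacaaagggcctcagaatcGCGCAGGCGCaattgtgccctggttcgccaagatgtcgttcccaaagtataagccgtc
UQCRC2 promoter: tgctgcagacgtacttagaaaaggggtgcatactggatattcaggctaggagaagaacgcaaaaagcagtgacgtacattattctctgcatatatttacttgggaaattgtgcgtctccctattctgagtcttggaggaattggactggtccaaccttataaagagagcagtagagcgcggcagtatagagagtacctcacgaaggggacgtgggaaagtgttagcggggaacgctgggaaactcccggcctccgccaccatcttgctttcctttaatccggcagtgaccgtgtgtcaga
NDUFB4 changed by 0.16 ± 0.04 in JNKKO with TGF-β1 (edgeR adjusted p = 0.00176) and by 0.07 ± 0.04 in WT, which did not pass. NDUFB4 was chosen for display for its motifs, after its values were seen. Of 42 tested members with any of the 3 motifs 4 rose and 23 fell with TGF-β1 in JNKKO (median -0.17), and of 20 without one 4 rose and 13 fell (median -0.26). In WT these were 4 and 30 (median -0.22), and 0 and 14 (median -0.31). Members with and without these letters thus had close values, which describes the windows and says nothing of any factor.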

How the data were processed

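Poly(A) RNA from the acini was taken with oligo(dT), ribosomal RNA was removed, and random-primed cDNA was read as pairs, per the labels' protocols. The submitters' processing notes name cutadapt, RSEM and the build hg38, without versions; an aligner, an annotation and a strand setting were not found in the labels. The authors deposited expected counts and TPM for 42141 genes, both per the file headers. Genes were placed with GENCODE 29 (42125 matched).

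Expected counts were rounded and tested with the quasi-likelihood test of edgeR 4.0.16 in R 4.3.3, with TMM factors (0.962 to 1.04), 1 mean per group over all 18 libraries and the default filter, which kept 16911 genes, and p-values were adjusted over these by Benjamini-Hochberg (threshold 0.05). The biological coefficient of variation was 4.47%. The SE of a log2 difference was derived from its F statistic. CPM are TMM-scaled counts. The deposited TPM were used for sums over genes and, as log2(TPM + 1) and log2(TPM + 0.1), with limma 3.58.1. DESeq2 1.42.0, no filter, no TMM factors, no mitochondrial rows, fewer groups in the fit, a replicate block and leaving out each library were the other alternatives, and centred TPM was added after seeing the data. The procedure was tested on simulated data. Python 3.11.15, numpy 2.4.6, pandas 2.3.3 and matplotlib 3.10.9 made the tables and figures.

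Named genes were the mitochondrial members, fixed core subunits, the 5 largest rises and falls of nuclear members at 5 CPM or more, isoforms and up to 4 genes per list. Members, lists and this rule were chosen with earlier results of these data known, so the tests are no independent support for them.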

Additional observations from a re-analysis of the deposited data

Results flagged for a closer look

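The response to treatment differed between JNKKO and WT by the interaction test of edgeR. For the dimerizer all 13 mitochondrial messages and 33 of 79 tested nuclear members passed, beside 42.6% of all genes. Among these members were MT-ND2 (1.09, JNKKO minus WT), MT-CO3 (0.33), NDUFS7 (0.47), UQCRC1 (0.34), ATP5F1 (-0.37) and ATP5A1 (-0.31). For TGF-β1 all 13 mitochondrial messages and 34 of 79 tested nuclear members passed, beside 32.9% of all genes. Among these members were MT-ND4 (-1.17), MT-ND1 (-0.77), MT-CO3 (-0.57), UQCRC1 (-0.50), NDUFS7 (-0.37), UQCRQ (0.42), NDUFB1 (0.41) and UQCRH (0.38). Of the listed regulators PPARGC1A passed (-1.67).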

How the results depend on the processing

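Counts of mitochondrial members called, both directions together, stayed within 1.5 times their value in all 11 comparisons under every alternative that holds them (the fit without mitochondrial rows does not), but for JNKKO against WT with dimerizer the 9 higher and 0 lower became 7 and 2 without TMM factors and 4 and 2 in uncentred TPM. Counts of nuclear members stayed within that limit with DESeq2, without mitochondrial rows, with no filter, with fewer groups in the fit and with centred TPM. In uncentred TPM, with both pseudocounts, the direction of the nuclear split turned for WT dimerizer against control (41 called), for JNKKO with TGF-β1 set against dimerizer (59) or control (59), and for the interaction with dimerizer (36 with a pseudocount of 1, 37 with 0.1), and for the interaction also without TMM factors (40). The split of JNKKO dimerizer against control turned without JNKKO control replicate 2 (17 called). JNKKO against WT with dimerizer called 56 nuclear members without TMM factors and 61 in TPM, against 29. COX4I1 in WT with dimerizer turned to 0.015 in TPM, MT-ND3 to -0.0016 without TMM factors and -0.0021 in TPM (JNKKO dimerizer) and to 0.076 in TPM (WT TGF-β1), MT-CO3 to 0.038 (WT TGF-β1), MT-ND6 to 0.16 (JNKKO TGF-β1) and 0.059 (WT TGF-β1 against control). The cause was not tested, beyond the shift of the median gene that these scales share.

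Without single libraries the nuclear counts ranged over 17 to 24 (JNKKO dimerizer), 45 to 50 (WT dimerizer), 51 to 56 (JNKKO TGF-β1), 58 to 59 (WT TGF-β1), 59 to 63 and 65 to 71 (TGF-β1 against control, JNKKO and WT), 40 to 49, 26 to 29 and 30 to 39 (JNKKO against WT in control, dimerizer and TGF-β1) and 29 to 35 and 27 to 34 (interactions with dimerizer and TGF-β1). Mitochondrial counts were 11 to 12 in JNKKO with dimerizer, 9 to 11 in WT with TGF-β1, 9 for JNKKO against WT with dimerizer and 12 or 13 in the others.

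Groups share replicate numbers, but same-numbered libraries did not deviate together (correlations of -0.0624 to 0.0767, 0 of 45 pairs over 0.1), so libraries share only a number. With the replicate number as a block the nuclear counts were 27 (JNKKO dimerizer), 52 (WT dimerizer), 56 (JNKKO TGF-β1) and 59 (WT TGF-β1), and the block changed no count by over 1.5 times.

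As a share of TPM the mitochondrial members took 12.6%, 17.0% and 20.3% in JNKKO (with dimerizer and TGF-β1, with dimerizer, control) and 21.4%, 16.9% and 28.6% in WT. With both rRNAs their shares of counts were 5.38%, 8.90% and 10.8% in JNKKO and 9.19%, 9.0% and 15.2% in WT. The ratio to nuclear members in counts was 7.21, 9.57 and 10.9 in JNKKO and 12.2, 8.46 and 15.2 in WT.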
